A study of Mus musculus with 38 samples.

Results

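The effect of lactic acid 24 h after inflammatory stimulation was examined in 8 of the 38 samples of the study, namely the 4 RNA libraries of macrophages that received lactic acid (LA 24h) and the 4 libraries of the same time without it (24h), chosen by their labels alone. All genes of the deposited RNA table entered the comparison: 9942 of its 11184 listed genes reached the minimum of 1 RPKM (reads per kilobase of gene, scaled to library size) in 4 or more of the 32 RNA libraries and were tested. The cells were primary bone marrow-derived macrophages of C57BL/6 mice. In both groups they were stimulated with lipopolysaccharide (LPS, a component of bacterial walls) at 5 ng/ml and interferon gamma (IFNg) at 12 ng/ml, and in the LA 24h group lactic acid was added 4 h into the stimulation. Times are read here as hours after LPS and IFNg. The study's design text can also be read as counting the lactic acid groups from lactic acid. In that case they would have been stimulated 4 h longer than the groups they are set against. Neither the dose of lactic acid nor whether replicates were separate mice or cultures is stated in the labels. P-values therefore measure only the spread between libraries within groups, taken over all 32 RNA libraries, and this spread may be technical. The same design at 16 h and 8 h, with 4 libraries a group, served as the comparison in time. A single chromatin immunoprecipitation (ChIP-seq) library each for lactylation and acetylation of histone H3 lysine 18 (H3K18la and H3K18ac), both from cells stimulated for 24 h without added lactic acid, was used to describe promoters.

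Macrophages stimulated with LPS and IFNg take on an inflammatory state, often called M1, and shift their energy metabolism to glycolysis, whose end product is lactate. Lactate and the acidity that comes with it reach cells through monocarboxylate transporters and proton-sensing receptors, and lactate is also a source of the lactyl group on histone lysines. Late in such a response, genes tied to wound healing such as Arg1 come up while the first wave of inflammatory transcripts declines.

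Macrophages given lactic acid had higher levels of many inflammatory, hypoxia-response and glycolytic genes at 24 h. Of the stress genes, 13 of 23 under the factor ATF4 rose and 4 fell, while endoplasmic reticulum folding and heat shock genes were split. Nos2, Ptgs2, Il1b and Cxcl2 were among the genes with the largest log2 fold changes, 1.91 to 3.17. Arg1, Vegfa and Spp1 rose too. Mrc1, Ccnd1, the genes of the replicative helicase and a set of sterol synthesis and mitochondrially encoded transcripts fell, while cell cycle genes as a list were split. In limma-trend on log2(RPKM + 1) with Benjamini-Hochberg adjustment, 2532 genes (25.5% of those tested) were higher and 2153 (21.7%) lower with lactic acid at an adjusted p under 0.05, 47.1% in either direction. These tests take the spread from all 32 RNA libraries. With the spread of the 2 groups alone, 1256 genes were higher and 1001 lower. The deposited table holds mostly genes that the authors' own test called: only 19 of its 11184 genes have a false discovery rate of 0.05 or more. The percentages here, and the shares over all genes below, are therefore shares of such genes and not of all expressed genes. On the log2(RPKM + 1) scale most changes were small: 69 genes (0.694%) were at least 2-fold higher and 4 (0.0402%) at least 2-fold lower. This scale understates the change of low genes, so the counts leave out low genes whose RPKM changed 2-fold or more. The lower genes were also at lower levels: among genes with a promoter sequence, their median without lactic acid was 3.89 RPKM, against 11.4 RPKM in the higher genes. In 1407 genes (14.2%) all libraries with lactic acid lay above all those without it, and in 1201 (12.1%) they lay below. The direction of small changes depends on the scaling. With each library scaled to its reads in listed genes in place of the authors' effective size, the median log2 fold change over all genes moved to -0.15, against 0.01, and 1035 genes were higher and 4617 lower (18.3% of calls higher, against 54.0%). List counts and medians under this scaling, given below, carry the same shift. They are to be read beside these values over the 9942 genes tested.

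**Figure D1:**
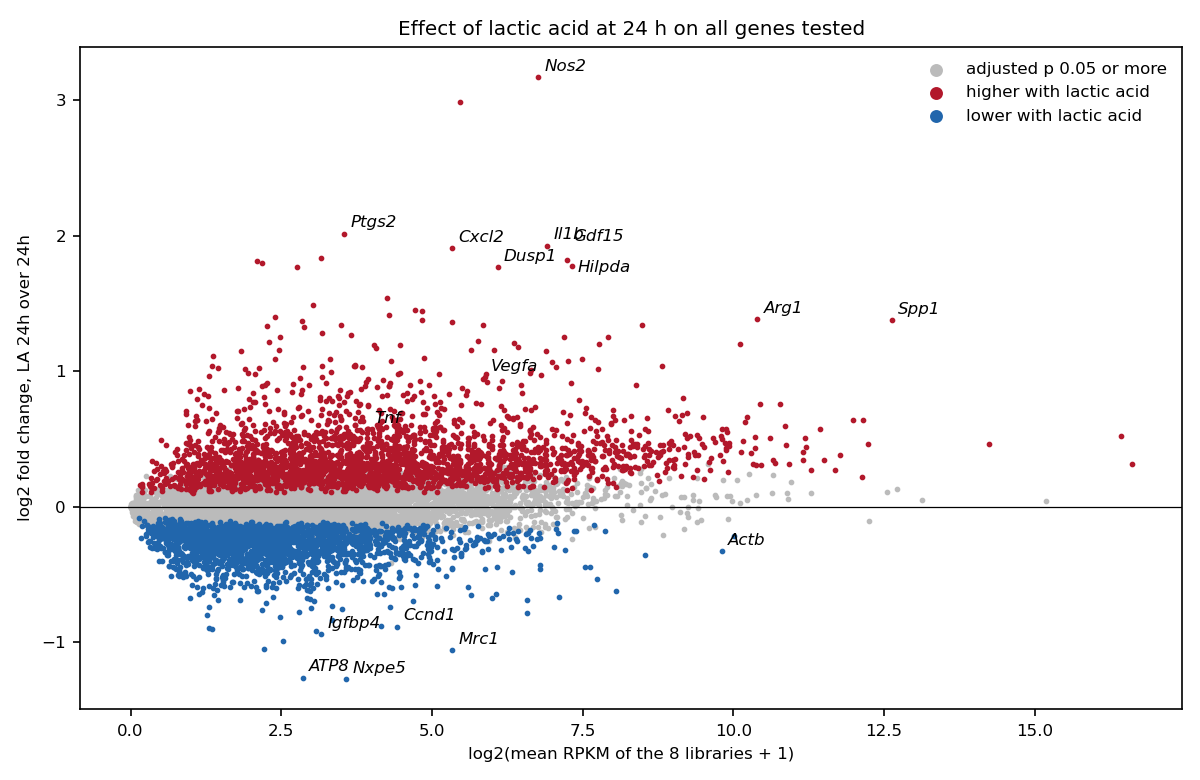
Log2 fold change of LA 24h over 24h against log2 of the mean RPKM of the 8 libraries plus 1, for the 9942 genes tested. Genes with an adjusted p under 0.05 are red where higher and blue where lower with lactic acid; Nos2 has the largest change, at 3.17.

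Depth in listed genes was 60.6 to 94.5 M reads with lactic acid and 62.7 to 78.2 M reads without it, recovered from the deposited RPKM. The authors' effective size over these reads was 0.756 to 0.864 with lactic acid and 0.856 to 1.02 without it, which is the source of the shift between scalings. Library 1 with lactic acid and library 4 without it stood apart from their groups: their short genes lay 0.79 and 0.77 log2 units further above their long genes than in the average library, against 0.23 to 0.49 in the other libraries with lactic acid and 0.01 to 0.23 in the others without it. Without these 2 libraries, 2767 genes were higher and 2254 lower. All 22 macrophage markers on the list were tested, and 6 were higher and 6 lower with lactic acid (3 and 13 when scaled to reads in listed genes). Among those that did not pass the test, Adgre1 (F4/80), Csf1r and Lyz2 averaged 936 ± 51.4, 153 ± 10.1 and 37998 ± 7087 RPKM with lactic acid, and 999 ± 107, 148 ± 12.3 and 36859.5 ± 5599 RPKM without it (SD, n = 4 each). In bulk RNA, a change in the number of cells of a type cannot be told apart from a change of RNA per cell.

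Nos2 and Arg1 compete for arginine. Nos2 makes nitric oxide from it and is a hallmark of inflammatory macrophages. Nos2 (chr11:78920787-78960226, GRCm38) had 211, 145, 186 and 234 RPKM with lactic acid, against 19.9, 15.7, 23.96 and 22.8 RPKM without it. Its groups lay far apart, with every library with lactic acid above every library without it. The log2 fold change was 3.17 ± 0.13 (SE), with an adjusted p of 3.24e-18. Arg1 (chr10:24915207-24927470), which turns arginine into ornithine and urea, had 2583, 1474, 1540.3 and 2224 RPKM with lactic acid, against 541, 973, 685 and 773 RPKM without it. Every library with lactic acid was above every library without it, although those with lactic acid spread from 1474 to 2583 RPKM. Arg1 was 1.39 ± 0.22 (SE) higher on the log2 scale, with an adjusted p of 6.17e-06. Arg2, the mitochondrial arginase, averaged 6.89 ± 1.54 RPKM with lactic acid and 2.30 ± 0.488 RPKM without it (SD, n = 4 each), and its log2 fold change was 1.25. Of the 18 genes of arginine and polyamine metabolism tested, 8 rose and 3 fell (median log2 fold change 0.13, against 0.01 over all genes; -0.01 when scaled to reads in listed genes). Ass1, which rebuilds arginine from citrulline, rose by 0.73, and Sat1 and Smox, which break polyamines down, rose by 0.69 and 0.59. The polyamine-making enzymes Odc1, Srm and Amd1 fell, with log2 fold changes of -0.34, -0.75 and -0.53.

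**Figure D2:**
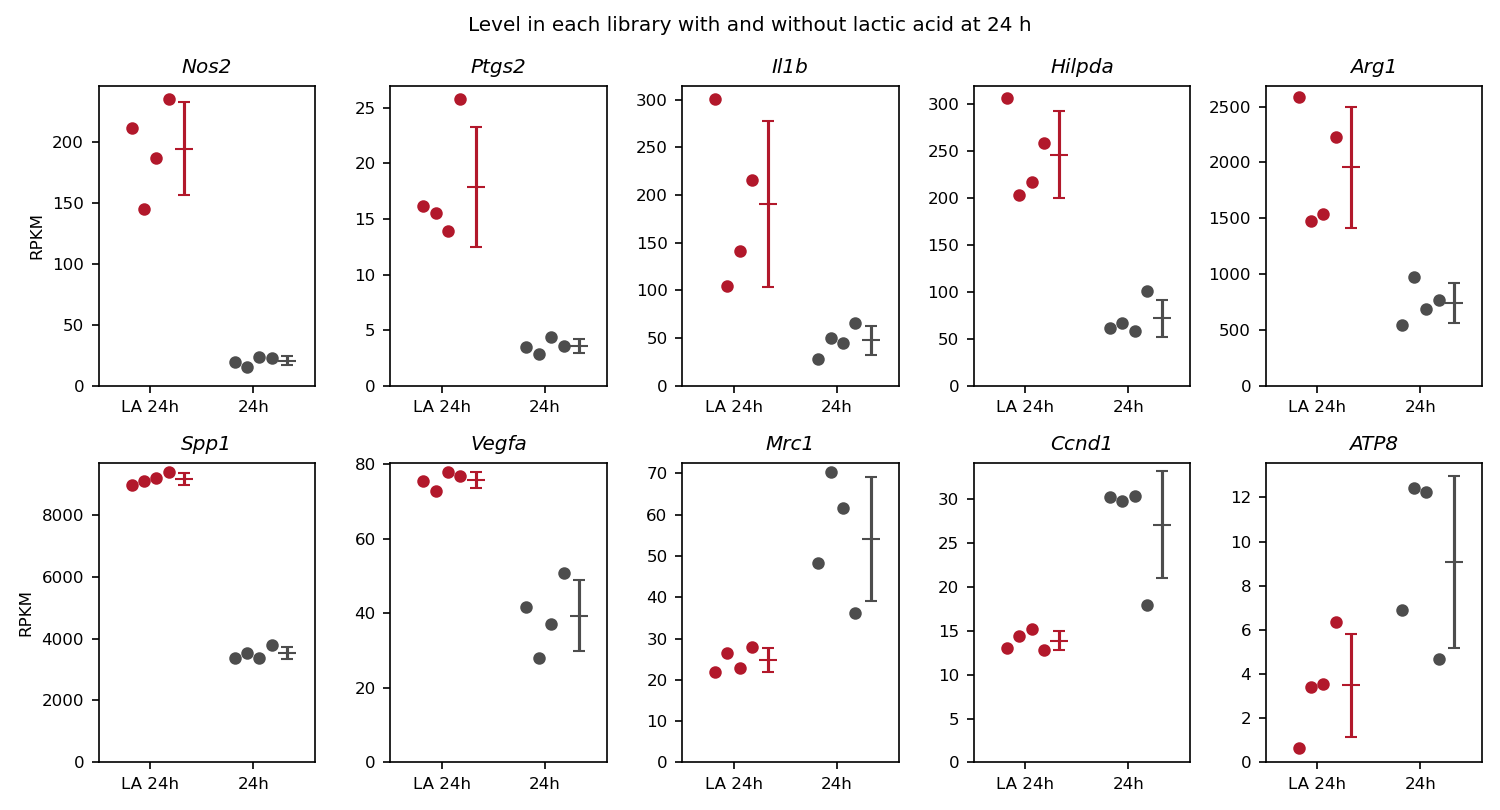
RPKM of 10 genes in each library at 24 h, with lactic acid in red at the left and without it in grey at the right; points are libraries 1 to 4 and the bar beside them is the mean ± SD (n = 4). The groups do not overlap in 9 of the genes; in ATP8, library 4 without lactic acid lies below library 4 with it.

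Among 24 inflammatory cytokines and enzymes tested, 18 rose and 1 fell (median log2 fold change 0.49), and 16 and 2 when scaled to reads in listed genes (median 0.31). Il1b, the central fever cytokine, had 301, 104, 142 and 216 RPKM with lactic acid, against 28.5, 50.3, 45.2 and 66.3 RPKM without it. All libraries with lactic acid were above those without it, although they differed widely among themselves. Its log2 fold change was 1.93 ± 0.22 (SE) (adjusted p 2.61e-08). Ptgs2, the inducible cyclooxygenase of prostaglandin synthesis, had 16.1, 15.5, 13.9 and 25.8 RPKM with lactic acid, against 3.48, 2.85, 4.38 and 3.57 RPKM without it. The groups did not overlap, and the log2 fold change was 2.02 ± 0.15 (SE) (adjusted p 4.26e-12). Smaller rises held for Osm, an IL-6 family cytokine (1.28), Il27 (0.91), Il12b (0.83), Il1a (0.80) and Acod1, which makes itaconate (0.65). Tnf had 16.98, 17.03, 17.8 and 17.3 RPKM with lactic acid, against 10.8, 11.99, 11.9 and 10.5 RPKM without it. Its libraries were tightly grouped and did not overlap, with a log2 fold change of 0.57 (adjusted p 8.12e-07). Il6 stayed under 1 RPKM in every library, at 0.557, 0.923, 0.578 and 0.923 RPKM with lactic acid and 0.169, 0.247, 0.199 and 0.469 RPKM without it, and its log2 fold change of 0.46 (adjusted p 3.97e-05) understates the ratio at this level. The scavenger receptor Marco was the member that fell, by 0.54 on the log2 scale. Csf2, Csf3, Il18, Cd40 and Edn1 did not pass the test.

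Chemokines rose in 10 of 20 genes tested and fell in none (median 0.28; 7 and 2 when scaled to reads in listed genes, median 0.13). Without library 4 without lactic acid the median was 0.45. The rise was largest in Cxcl2 and Cxcl3, ligands that draw neutrophils. Cxcl2 had 76.9, 50.2, 49.5 and 73.1 RPKM with lactic acid, against 10.6, 19.5, 13.9 and 20.1 RPKM without it. No library overlapped, and the log2 fold change was 1.91 ± 0.15 (SE) (adjusted p 1.47e-11). Cxcl3 averaged 40.6 ± 15.9 RPKM with lactic acid and 14.2 ± 5.34 RPKM without it (SD, n = 4 each) and Cxcl1 2.68 ± 0.883 RPKM with lactic acid and 0.785 ± 0.218 RPKM without it (SD, n = 4 each), with log2 fold changes of 1.44 and 1.02. Ccl3, which binds CCR1, averaged 339 ± 21.1 RPKM with lactic acid and 143 ± 27.97 RPKM without it (SD, n = 4 each) (1.25). The interferon-induced CXCR3 ligands differed among themselves: Cxcl10 rose by 0.45, while Cxcl9 and Cxcl11 had log2 fold changes of 0.07 and 0.09 and did not pass the test. Ccrl2, a chemokine-binding receptor that does not signal, had 27.2, 28.6, 26.4 and 27.6 RPKM with lactic acid, against 10.9, 6.56, 7.78 and 10.6 RPKM without it (log2 fold change 1.54). The receptor Cxcr4 had 39.3, 40.5, 34.96 and 35.8 RPKM with lactic acid, against 18.03, 10.5, 11.9 and 13.02 RPKM without it. In both receptors the groups were clearly separate, and the adjusted p of Cxcr4 was 1.05e-11.

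Targets of the hypoxia-inducible factors (HIF) rose in 21 of 25 genes tested and fell in 2, with a median log2 fold change of 0.57, and in 17 and 2 when scaled to reads in listed genes (median 0.38). Hilpda, which restrains the breakdown of lipid droplets, had 306, 203, 216 and 258 RPKM with lactic acid, against 61.01, 66.6, 58.7 and 101 RPKM without it. Vegfa (chr17:46016993-46032377), the main growth factor of blood vessels, had 75.6, 72.9, 78.00 and 76.8 RPKM with lactic acid, against 41.6, 28.1, 37.1 and 50.9 RPKM without it. For Vegfa the libraries with lactic acid lay close together, above all libraries without it. The log2 fold changes were 1.78 ± 0.12 (SE) for Hilpda (adjusted p 8.56e-13) and 0.96 ± 0.10 (SE) for Vegfa (adjusted p 6.17e-09). Ddit4, an inhibitor of mTORC1 signalling, averaged 27.6 ± 6.73 RPKM with lactic acid and 9.57 ± 1.11 RPKM without it (SD, n = 4 each) (1.41). Ankrd37, Egln3 (a prolyl hydroxylase that marks HIF for decay), P4ha2 (a collagen prolyl hydroxylase) and the vasodilator peptide gene Adm rose by 1.34, 1.16, 1.09 and 1.03. Hif1a itself rose by 0.43, Epas1 (HIF-2 alpha) had 0.01 and did not pass the test, and Car9 and Pfkfb4 fell, with log2 fold changes of -0.29 and -0.14.

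Glycolysis rose in 16 of 21 genes tested and fell in 2 (median 0.53; 15 and 4 when scaled to reads in listed genes, median 0.32). Rises were found along the pathway. The glucose carrier Slc2a1 (GLUT1) averaged 208 ± 29.2 RPKM with lactic acid and 97.8 ± 11.6 RPKM without it (SD, n = 4 each) (1.07). Gpi1, Pfkp, Aldoa, Tpi1, Gapdh, Pgk1, Pgam1, Eno1 and Pkm rose by 0.39 to 0.78. Pfkfb3, whose product fructose 2,6-bisphosphate drives phosphofructokinase, averaged 32.4 ± 3.61 RPKM with lactic acid and 17.9 ± 1.86 RPKM without it (SD, n = 4 each) (0.82). Ldha, which reduces pyruvate to lactate, had 1751, 1285, 1402 and 1469 RPKM with lactic acid, against 821, 1015, 855 and 1029 RPKM without it. Its groups did not overlap and its log2 fold change was 0.66 ± 0.09 (SE) (adjusted p 4.77e-07). Genes of lactate transport and handling were split, with 5 of 13 tested higher and 4 lower (median 0.13). Scaled to reads in listed genes, 5 were higher and 5 lower (median -0.07). The lactate exporter Slc16a3 (MCT4) and its chaperone Bsg rose with log2 fold changes of 0.70 and 0.63, and the pyruvate carrier Mpc1 rose by 0.46. Ldhb, which favours the reverse reaction, fell, with -0.55. In the tricarboxylic acid cycle 6 of 26 genes rose and 6 fell (median -0.07), near the shares over all genes, while none rose and 15 fell when scaled to reads in listed genes (median -0.27, against -0.15 over all genes). Idh3a and Aco1 were lower by 0.46 and 0.32 on the log2 scale and Mdh2 was higher by 0.32; Mdh2 no longer passed the test when scaled to reads in listed genes (0.11, adjusted p 0.0523).

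The promoters of 4 of the HIF-target and glycolytic genes are printed because their windows hold the core letters ACGTG of the hypoxia response element, in capitals below. Each is a RefSeq window of 300 bases on GRCm38.p6, read 5′ to 3′ along the gene's strand, with the start of transcription after base 250.
Hilpda (chr6:29272376-29272675, plus strand): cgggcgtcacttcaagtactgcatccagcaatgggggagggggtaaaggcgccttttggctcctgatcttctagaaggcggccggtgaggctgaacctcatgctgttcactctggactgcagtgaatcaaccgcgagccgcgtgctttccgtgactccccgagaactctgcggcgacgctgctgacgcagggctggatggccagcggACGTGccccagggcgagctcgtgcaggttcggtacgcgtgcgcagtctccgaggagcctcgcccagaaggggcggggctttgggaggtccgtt
Ddit4 (chr10:59951721-59952020, minus strand): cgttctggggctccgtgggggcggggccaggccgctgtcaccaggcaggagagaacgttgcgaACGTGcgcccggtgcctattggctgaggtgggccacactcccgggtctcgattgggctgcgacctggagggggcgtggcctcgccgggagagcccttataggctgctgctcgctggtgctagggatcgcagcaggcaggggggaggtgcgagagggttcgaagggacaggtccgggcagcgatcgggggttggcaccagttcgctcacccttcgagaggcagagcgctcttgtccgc
Slc2a1 (chr4:119108495-119108794, plus strand): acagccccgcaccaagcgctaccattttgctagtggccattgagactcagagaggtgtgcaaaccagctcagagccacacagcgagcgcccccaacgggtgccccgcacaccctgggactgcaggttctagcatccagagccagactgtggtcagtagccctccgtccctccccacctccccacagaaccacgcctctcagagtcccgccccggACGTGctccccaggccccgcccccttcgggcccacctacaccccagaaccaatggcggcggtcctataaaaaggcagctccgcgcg
Pfkfb3 (chr2:11553880-11554179, minus strand): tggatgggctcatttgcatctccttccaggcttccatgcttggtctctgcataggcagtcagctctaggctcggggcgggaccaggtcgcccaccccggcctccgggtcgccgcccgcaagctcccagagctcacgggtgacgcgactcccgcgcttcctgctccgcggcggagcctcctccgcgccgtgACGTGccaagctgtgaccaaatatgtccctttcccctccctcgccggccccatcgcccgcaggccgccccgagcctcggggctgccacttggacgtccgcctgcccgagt
ACGTG was searched on both strands. It stood in at least one window of 16 of the 20 HIF-target genes tested that have an entry (80.0%), against 2369 of 7823 genes tested with an entry (30.3%) and 6447 of all 32851 windows of the table (19.6%). Hilpda and Pfkfb3 have 2 windows each, and the first that holds the letters is shown. Vegfa has the letters only in the window of its second, downstream start. Windows with the letters included those of Car9, which fell, and the windows of Adm and Kdm3a, which rose by 1.03 and 0.36, do not hold them. A match is a description of the sequence. All 4 windows overlapped peaks of both marks in stimulated cells, by the authors' peak lists: the H3K18la fold enrichment was 3.40 at Hilpda, 4.04 at Ddit4, 6.25 at Slc2a1 and 3.50 at Pfkfb3, and that of H3K18ac was 4.39, 5.46, 5.28 and 4.88 at the same genes.

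Stress genes under the factor ATF4, which responds to scarce amino acids and other stresses, moved in both directions. Of 23 tested, 13 rose and 4 fell (median 0.29), and 8 and 5 when scaled to reads in listed genes (median 0.10). The largest rise was that of Gdf15. This gene of a stress hormone had 213, 271, 267 and 157 RPKM with lactic acid, against 114, 25.1, 42.5 and 119.9 RPKM without it. Its libraries without lactic acid were uneven, high in libraries 1 and 4 and low in 2 and 3, and all were below the libraries with lactic acid. The log2 fold change was 1.82 ± 0.30 (SE) (adjusted p 1.45e-05). Atf3, a repressor of inflammatory genes, averaged 512 ± 35.6 RPKM with lactic acid and 204 ± 39.7 RPKM without it (SD, n = 4 each) (1.34). Ddit3 (CHOP) averaged 67.7 ± 7.30 RPKM with lactic acid and 30.99 ± 10.7 RPKM without it (SD, n = 4 each) (1.15). Atf4 itself, Ppp1r15a and the cystine carrier Slc7a11 rose by 0.91, 1.04 and 0.85. Among enzymes of amino acid synthesis, Psat1 rose by 0.29, while Asns, Phgdh and Shmt2 fell, with -0.48, -0.56 and -0.59, and so did the carrier Slc7a5 (-0.26). In the ER folding response 4 of 22 rose and 5 fell (median 0.01), near the shares over all genes, with Hspa5 at 0.09 (not passing the test) and Hsp90b1 lower by 0.32. When scaled, none rose and 11 fell (median -0.18, against -0.15 over all genes). Among 18 heat shock genes, all cytosolic except Hspd1 and Hspe1, 5 rose and 4 fell (median 0.08), near the shares over all genes. The counts were 2 and 7 when scaled (median -0.12, against -0.15 over all genes), and 6 and 1 without the 2 libraries that stood apart. The mitochondrial chaperone Hspd1 had 11.3, 14.9, 14.5 and 14.5 RPKM with lactic acid, against 22.7, 21.5, 23.2 and 27.5 RPKM without it, without overlap (log2 fold change -0.74).

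Windows of Atf3 and Slc7a11 are shown for the letters TGATGNAA of the amino acid response element, in capitals. The capitals of Atf3 and the second run in Slc7a11 are the motif on the other strand.
Atf3 (chr1:191183284-191183583, minus strand): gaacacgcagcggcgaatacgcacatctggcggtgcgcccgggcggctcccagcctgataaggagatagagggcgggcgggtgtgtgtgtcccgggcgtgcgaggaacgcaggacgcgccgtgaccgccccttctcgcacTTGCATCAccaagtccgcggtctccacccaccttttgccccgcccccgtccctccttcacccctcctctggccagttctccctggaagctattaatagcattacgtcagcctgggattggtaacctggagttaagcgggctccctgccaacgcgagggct
Slc7a11 (chr3:50443564-50443863, minus strand): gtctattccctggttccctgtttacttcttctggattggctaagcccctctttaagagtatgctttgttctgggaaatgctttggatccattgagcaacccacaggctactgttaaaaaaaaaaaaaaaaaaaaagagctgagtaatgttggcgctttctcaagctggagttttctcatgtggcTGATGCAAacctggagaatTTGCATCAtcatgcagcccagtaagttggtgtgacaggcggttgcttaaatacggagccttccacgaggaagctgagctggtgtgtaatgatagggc
On both strands, these letters stood in windows of 7 of 22 ATF4-list genes with an entry (31.8%), against 218 of 7823 genes tested (2.79%) and 1304 of all 32851 windows (3.97%). The genes that fell were among the holders too: Asns holds them. The H3K18la enrichment was 11.6 over the Atf3 window, in a peak from 191178601 to 191202789 on chromosome 1, and 4.40 over that of Slc7a11. For chemokines the letters GGGNNNNNCC of the NF-kB site were searched, and the Cxcl2 window is shown because it holds 3 matches, 2 of them overlapping.
Cxcl2 (chr5:90903649-90903948, plus strand): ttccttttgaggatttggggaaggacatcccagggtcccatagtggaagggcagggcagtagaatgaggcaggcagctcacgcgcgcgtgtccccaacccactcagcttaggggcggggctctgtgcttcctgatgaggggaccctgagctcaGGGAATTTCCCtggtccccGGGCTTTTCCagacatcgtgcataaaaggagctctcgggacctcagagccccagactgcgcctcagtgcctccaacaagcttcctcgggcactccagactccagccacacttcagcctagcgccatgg
These letters are common: 7 of 13 chemokine genes with an entry held them (53.8%), against 5666 of 7823 genes tested (72.4%) and 16686 of all 32851 windows (50.8%). The Cxcl2 window overlapped an H3K18ac peak with a fold enrichment of 3.52 and no H3K18la peak.

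Feedback genes rose with the inflammatory ones. Of 28 immediate early and feedback genes tested, 22 rose and 3 fell (median 0.46; 19 and 3 when scaled to reads in listed genes, median 0.30). Dusp1, a phosphatase that switches off MAP kinases, had 108, 103, 109 and 97.1 RPKM with lactic acid, against 34.8, 25.5, 29.4 and 30.6 RPKM without it. The separation was complete, and the log2 fold change was 1.77 ± 0.07 (SE) (adjusted p 1.15e-17). Dusp4 and Dusp5 rose by 1.17 and 0.86. Rises held also for Tnfaip3 (A20, 0.92), Ier3 (0.97) and Zfp36, which speeds the decay of cytokine mRNAs (0.76). Junb, Maff and Jun rose by 0.72, 0.66 and 0.59. Dusp6, Ier2 and Klf2, a factor that quietens macrophages, fell, with -0.33, -0.22 and -0.59. Of 15 targets of cAMP and its factor CREB tested, 9 rose and 2 fell (median 0.28; 5 and 2 when scaled, median 0.09), Thbs1 and the clock gene Per1 among them by 0.98 and 0.72. Rgs1, which limits signalling of G-protein-coupled receptors, averaged 15.1 ± 2.98 RPKM with lactic acid and 5.36 ± 1.20 RPKM without it (SD, n = 4 each) (1.34).

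Among receptors and carriers for protons and acids, 3 of 15 genes tested rose and 3 fell (median 0.01), no larger a share than over all genes. Scaled to reads in listed genes, 2 rose and 7 fell (median -0.12, against -0.15 over all genes). Hcar2, a receptor of hydroxybutyrate and niacin, had 8.02, 3.88, 4.85 and 7.53 RPKM with lactic acid, against 0.759, 1.21, 1.01 and 0.917 RPKM without it. The proton-sensing receptor Gpr65 went the other way, with 5.24, 6.92, 7.30 and 7.15 RPKM with lactic acid, against 10.8, 11.5, 12.3 and 12.1 RPKM without it. Neither gene had overlapping groups, and their log2 fold changes were 1.80 ± 0.12 (SE) and -0.73 ± 0.08 (SE), with adjusted p of 5.10e-13 and 4.74e-09.

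Repair and alternative activation genes moved in both directions. Of 25 tested, 12 rose and 5 fell (median 0.24; 8 and 8 when scaled to reads in listed genes, median 0.06). The median was 0.15 without library 2 and 0.14 without library 4 of the group without lactic acid. Spp1 (osteopontin) had 8942, 9091, 9184 and 9381 RPKM with lactic acid, against 3378, 3547, 3377 and 3804 RPKM without it. The libraries differed little within each group, and the log2 fold change was 1.38 ± 0.08 (SE) (adjusted p 6.31e-14). Thbs1, Igf1, Pdgfa, Hbegf and Pdgfb rose by 0.39 to 0.98. The mannose receptor Mrc1, a textbook marker of alternative activation, went down with 21.9, 26.6, 22.8 and 27.96 RPKM with lactic acid, against 48.4, 70.2, 61.6 and 36.2 RPKM without it. Its groups did not overlap, and the log2 fold change was -1.06 ± 0.12 (SE) (adjusted p 3.40e-08). Mertk, Gas6, Stab1 and Cd163, genes of dead-cell uptake and scavenging, fell with -0.44, -0.34, -0.35 and -0.29. Il10, Chil3 and Tgfb1 did not pass the test (-0.15, 0.10 and -0.00). Among matrix proteases and inhibitors 10 of 20 rose and 2 fell (median 0.13; 8 and 5 when scaled, median 0.03). Mmp13, Mmp12, Mmp8 and Timp1 rose by 1.18, 0.94, 0.92 and 0.82, and Mmp9 and Mmp14 fell with -0.50 and -0.46.

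Antigen presentation rose on the class II side. All 7 class II genes listed rose (median 0.43), 3 of them when scaled to reads in listed genes (median 0.22). H2-Ob, part of the modulator of peptide loading, had 7.44, 4.90, 5.80 and 5.54 RPKM with lactic acid, against 1.65, 1.74, 1.47 and 2.08 RPKM without it. H2-Ab1, a chain of the presenting molecule, had 114, 76.4, 82.9 and 80.8 RPKM with lactic acid, against 44.7, 45.02, 39.7 and 62.1 RPKM without it. Both were without overlap, with log2 fold changes of 1.33 ± 0.08 (SE) and 0.88 ± 0.11 (SE). Of 20 class I genes 8 rose and 3 fell (median 0.13; 4 and 6 with a median of -0.07 when scaled to reads in listed genes). H2-T22 rose by 0.61, while Nlrc5, the class I transactivator, fell with -0.27. Interferon-stimulated genes were mixed, with 14 of 34 higher and 4 lower (median 0.20; 4 and 8 with a median of -0.00 when scaled). Rsad2 (viperin) averaged 66.2 ± 10.05 RPKM with lactic acid and 38.6 ± 6.85 RPKM without it (SD, n = 4 each) (0.77) and Isg20 rose by 0.70. Irf1, Irgm1 and Iigp1 were among those that fell, with -0.24, -0.29 and -0.42.

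Of 22 macrophage identity genes 6 rose and 6 fell (median -0.03), near the shares over all genes, and 3 rose and 13 fell when scaled to reads in listed genes (median -0.24). Cd14, the LPS co-receptor, had 2073, 1115, 1475 and 1536 RPKM with lactic acid, against 514, 664, 661 and 828 RPKM without it. It did not overlap between groups, and its log2 fold change was 1.20 ± 0.12 (SE) (adjusted p 2.09e-09). The lineage factor Maf averaged 12.1 ± 0.958 RPKM with lactic acid and 19.8 ± 3.53 RPKM without it (SD, n = 4 each), with a log2 fold change of -0.65. Cx3cr1, Itgam and Aif1 fell too, with -0.63, -0.46 and -0.29. Adgre1, Csf1r, Lyz2 and the 3 C1q chains did not pass the test.

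Of 40 cell cycle genes 10 were higher and 10 lower (median -0.01), near the shares over all genes. Scaled to reads in listed genes, 2 were higher and 14 lower (median -0.08, against -0.15 over all genes). The genes that rose are not named here, and none rose by more than 0.37. All 6 subunits of the replicative helicase fell: Mcm5 averaged 0.729 ± 0.125 RPKM with lactic acid and 2.23 ± 0.410 RPKM without it (SD, n = 4 each) (-0.89), and Mcm2, Mcm3, Mcm4, Mcm6 and Mcm7 had -0.24, -0.47, -0.36, -0.41 and -0.24. Ccnd1, the cyclin of early G1, had 13.1, 14.4, 15.3 and 12.9 RPKM with lactic acid, against 30.3, 29.8, 30.3 and 17.9 RPKM without it. Library 4 without lactic acid was the lowest of its group and still above all libraries with lactic acid (log2 fold change -0.89 ± 0.14 (SE)). The mitotic genes Mki67, Top2a, Ccnb1 and Plk1 did not pass the test. Among p53 targets and cell death genes 9 of 30 rose and 7 fell (median 0.09), near the shares over all genes. When scaled, 7 rose and 12 fell (median -0.11, against -0.15 over all genes). Gadd45b, Gadd45a, Mdm2 and Bbc3 (PUMA) rose by 1.36, 0.77, 0.74 and 0.67, and Sesn1 fell, with 12.2, 11.8, 11.05 and 10.9 RPKM with lactic acid, against 19.7, 26.8, 22.6 and 19.8 RPKM without it (log2 fold change -0.88). Nxpe5, Igfbp4, Ranbp1, Ap1s2 and BC005537 fell without overlap as well, with -1.27, -0.94, -0.84, -0.76 and -0.69.

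Sterol and fatty acid synthesis fell in 13 of 31 genes and rose in 1 (median -0.15), and in 25 and none when scaled to reads in listed genes (median -0.30). Scd2 and Fasn averaged 37.5 ± 1.59 and 0.423 ± 0.0425 RPKM with lactic acid, and 57.3 ± 7.21 and 1.04 ± 0.273 RPKM without it (SD, n = 4 each). Their log2 fold changes were -0.59 and -0.51. Stard4, Cyp51, Dhcr7, Idi1, Elovl6 and Acly, enzymes and carriers of the same routes, fell as well (-0.47 to -0.34), while Srebf2 did not pass the test. Lipid efflux under the receptor LXR was mixed (6 of 16 rose and 4 fell, median -0.10, or -0.05 without library 3 without lactic acid; 5 and 8 when scaled, median -0.27), with Apoe and Abcg1 higher by 0.58 and 0.48. Antioxidant genes under NRF2 rose in 13 of 26 and fell in 1 (median 0.26; 11 and 7 when scaled, median 0.06). Nqo1 and Prdx1 rose by 0.64 and 0.64, and Gclc, the catalytic subunit for glutathione synthesis, was the 1 that fell (-0.57). Of 25 histone acyl writers and erasers 9 rose and 8 fell (median -0.02), where over all genes 25.5% rose and 21.7% fell. When scaled, 3 rose and 11 fell (median -0.16, against -0.15 over all genes). Ep300 and Hdac3 had 0.07 and -0.02 and did not pass the test, Sirt3 rose by 0.48, and Kat2a and Hdac10 fell with -0.41 and -0.47.

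**Figure D3:**
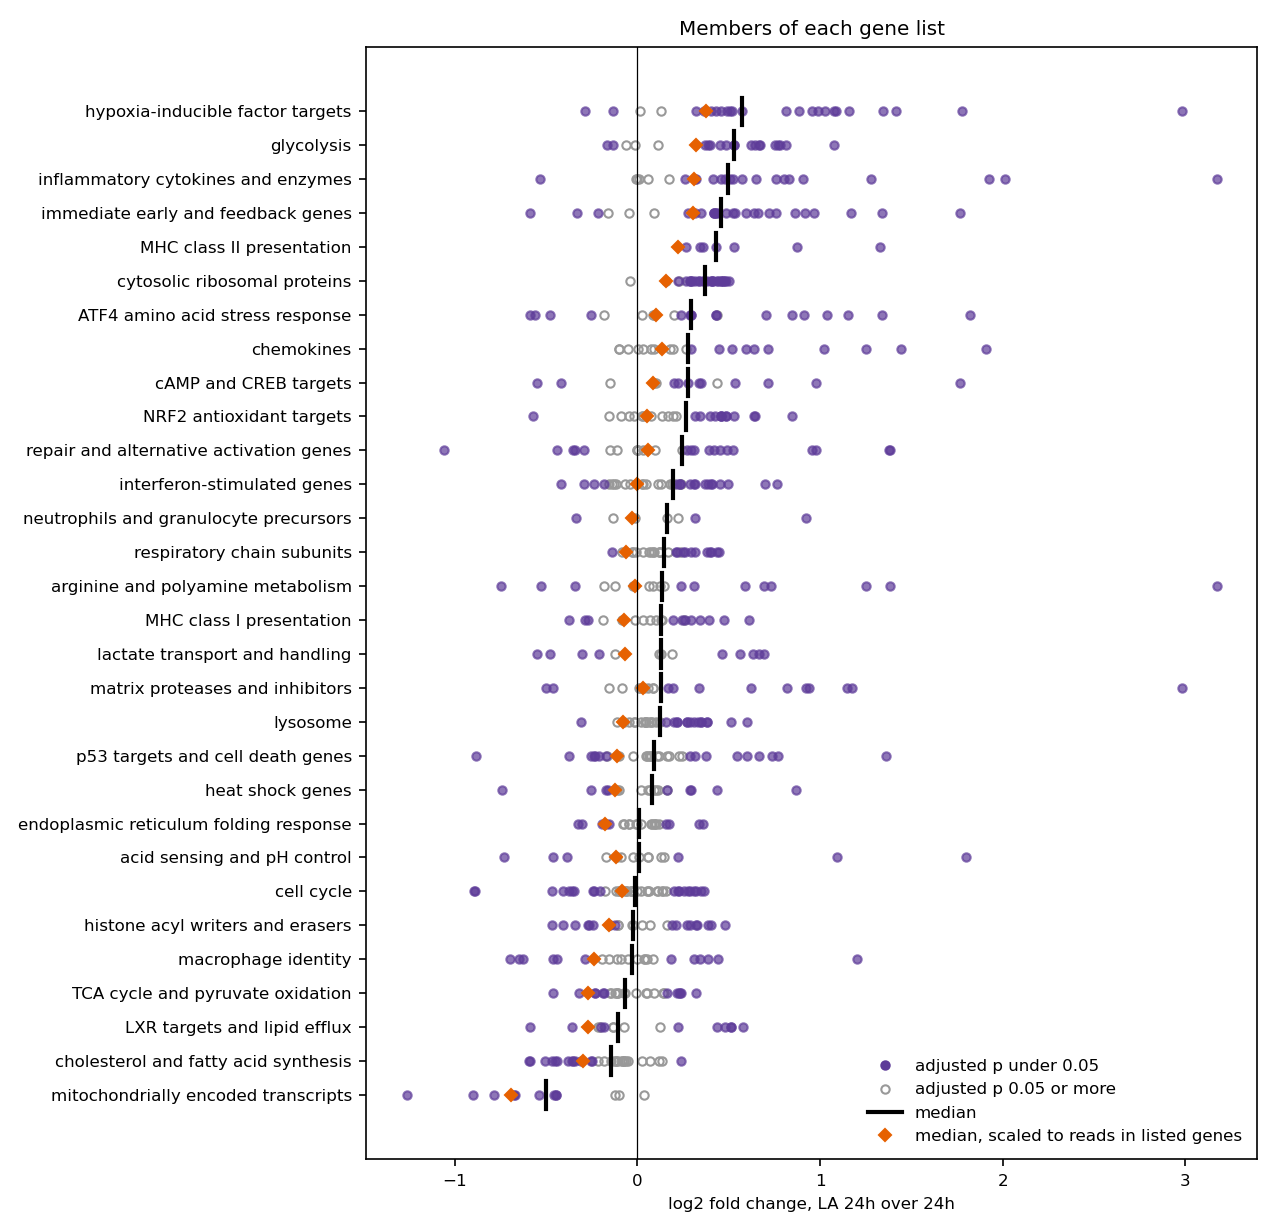
Log2 fold change of LA 24h over 24h for the members of each list with at least 5 genes tested; filled points passed an adjusted p under 0.05, the bar is the median of the members, and the diamond is the median after scaling to the reads in listed genes. HIF targets (0.57) and glycolysis (0.53) have the highest medians and mitochondrially encoded transcripts the lowest (-0.50).

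Transcripts of the mitochondrial genome and those of short, abundant nuclear genes moved in opposite directions. Of 12 mitochondrially encoded transcripts tested, none rose and 9 fell (median -0.50); without the 2 libraries that stood apart 6 fell (median -0.39). ND6 had 51.6, 65.9, 73.1 and 83.7 RPKM with lactic acid, against 93.4, 107, 110.1 and 171 RPKM without it. The groups of ND6 did not overlap (log2 fold change -0.78 ± 0.14 (SE), adjusted p 4.50e-05), while those of ND2, ND5 and ATP8 did. The summed level of the 12 was 1104 to 2028 RPKM with lactic acid and 1639 to 1891 RPKM without it, so the sums overlapped. Cytosolic ribosomal protein genes rose in 25 of 28 and fell in none (median 0.37; 12 and 1 when scaled, median 0.16; 24 and 0 with the gene length trend of each library removed, median 0.27). Only 2 of the 28 were higher without overlap of the groups, against 14.2% over all genes. Their sums overlapped too, at 13730 to 20399 RPKM with lactic acid and 10057 to 16209 RPKM without it. Fitted on the 2 groups alone, Rps14, Rps19 and Rpl32 did not pass the test (adjusted p 0.0878, 0.0791 and 0.0512). Nuclear-encoded respiratory chain subunits rose in 11 of 26 and fell in 1 (median 0.15; 2 and 8 with a median of -0.06 when scaled). None of the 26 was higher without overlap of the groups. Cox4i1, Ndufa2 and Uqcrq did not pass the test when fitted on the 2 groups alone (adjusted p 0.0814, 0.173 and 0.147). Lysosomal genes rose in 15 of 31 and fell in 1 (median 0.12, or 0.19 without library 4 without lactic acid; 5 and 10 with a median of -0.08 when scaled), Ctsk, Npc2 and Neu1 by 0.60, 0.51 and 0.38. Gene length moved with these results: the median log2 fold change was 0.13 in the shortest decile of genes (median 1131 bases) and -0.03 in the longest (10796 bases), and its part in them was not tested beyond the fit without the length trend. Actb, often used as a reference gene, had 865, 683, 864 and 769 RPKM with lactic acid, against 934, 936, 1038 and 1072 RPKM without it, and was lower without overlap (-0.33 ± 0.08 (SE), adjusted p 0.00131); fitted on its own 2 groups it did not pass the test (adjusted p 0.0734).

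Markers of other cells a marrow culture could hold were followed where the table lists them. None of 14 erythroid and mast cell genes was listed. Only 19 of the 11184 listed genes have a false discovery rate of 0.05 or more in the authors' deposited table, so a gene that is expressed but does not change could be missing from it, and the level of genes not listed is not known here. Of 15 neutrophil genes, 8 were listed: their sum was 666 to 855 RPKM with lactic acid and 473 to 818 RPKM without it, nearly all of it Lcn2 and Mmp8, which activated macrophages also make, while Camp, Ngp and Ltf averaged under 1 RPKM. Of the 7 tested, 2 rose (Mmp8 and Lcn2, 0.92 and 0.32) and 1 fell (Csf3r, -0.33). The 4 dendritic cell genes listed summed to 3.18 to 4.74 RPKM with lactic acid and 2.07 to 3.26 RPKM without it; 1 of 2 tested rose (Batf3, 0.43). The 3 lymphocyte genes listed summed to 20.5 to 33.3 RPKM with lactic acid and 19.2 to 26.2 RPKM without it, mostly Il7r, which rose by 0.32, while Cd79b did not pass the test. The 9 stromal and endothelial genes listed summed to 6.82 to 7.47 RPKM with lactic acid and 5.07 to 5.98 RPKM without it; 3 of 4 tested rose (Dcn, Acta2 and Kdr, 0.19 to 0.28). Lcn2, Il7r and Acta2 overlapped between groups and lost the call without single libraries: without library 1 with lactic acid Lcn2 had 0.26 (adjusted p 0.0771) and Acta2 0.20 (adjusted p 0.0860), and without library 4 with lactic acid Il7r had 0.21 (adjusted p 0.183). The part of other cells in the results above was not tested.

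The effect at 24 h was set beside those at 16 h and 8 h, which rest on other libraries. More of the leading genes were already up at 16 h than at 8 h. Of the 69 genes at least 2-fold higher at 24 h, 53 were also higher at 16 h and 2 lower, while at 8 h 16 were higher and 18 lower. With each library's gene length trend removed, 61 genes were at least 2-fold higher at 24 h, of which 50 were higher and 3 lower at 16 h, and 28 were higher and 8 lower at 8 h. Over all genes tested, lactic acid changed 61.2% at 16 h (30.2% higher, 31% lower) and 68.2% at 8 h (32.1% higher, 36% lower). Of the 2532 genes higher at 24 h, 1058 were higher at 16 h (41.8% of the 24 h genes and 35.3% of those higher at 16 h) and 509 lower. At 8 h, 779 of them were higher (30.8% and 24.4% of the genes higher at the 2 times) and 1006 lower. Of the 2153 genes lower at 24 h, 979 were lower at 16 h (45.5% of these and 31.8% of those lower at 16 h) and 310 higher. The difference of the effects itself passed the test in many genes: it was positive for 3253 (32.7%) and negative for 2956 (29.7%) between 24 h and 8 h, 62.5% in all. Between 24 h and 16 h it was positive for 2671 (26.9%) and negative for 2313 (23.3%), 50.1% in all. Gene length moved with these differences. The shortest decile of genes had a median log2 fold change of -0.40 at 8 h, of -0.24 at 16 h and of 0.13 at 24 h, while the longest decile had 0.26, 0.17 and -0.03. Differences for single genes are therefore given also with each library's length trend removed. Cxcr4, Hilpda, Klf2, ND2, ND5 and ND6 are described because their differences are among the largest.

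**Figure D4:**
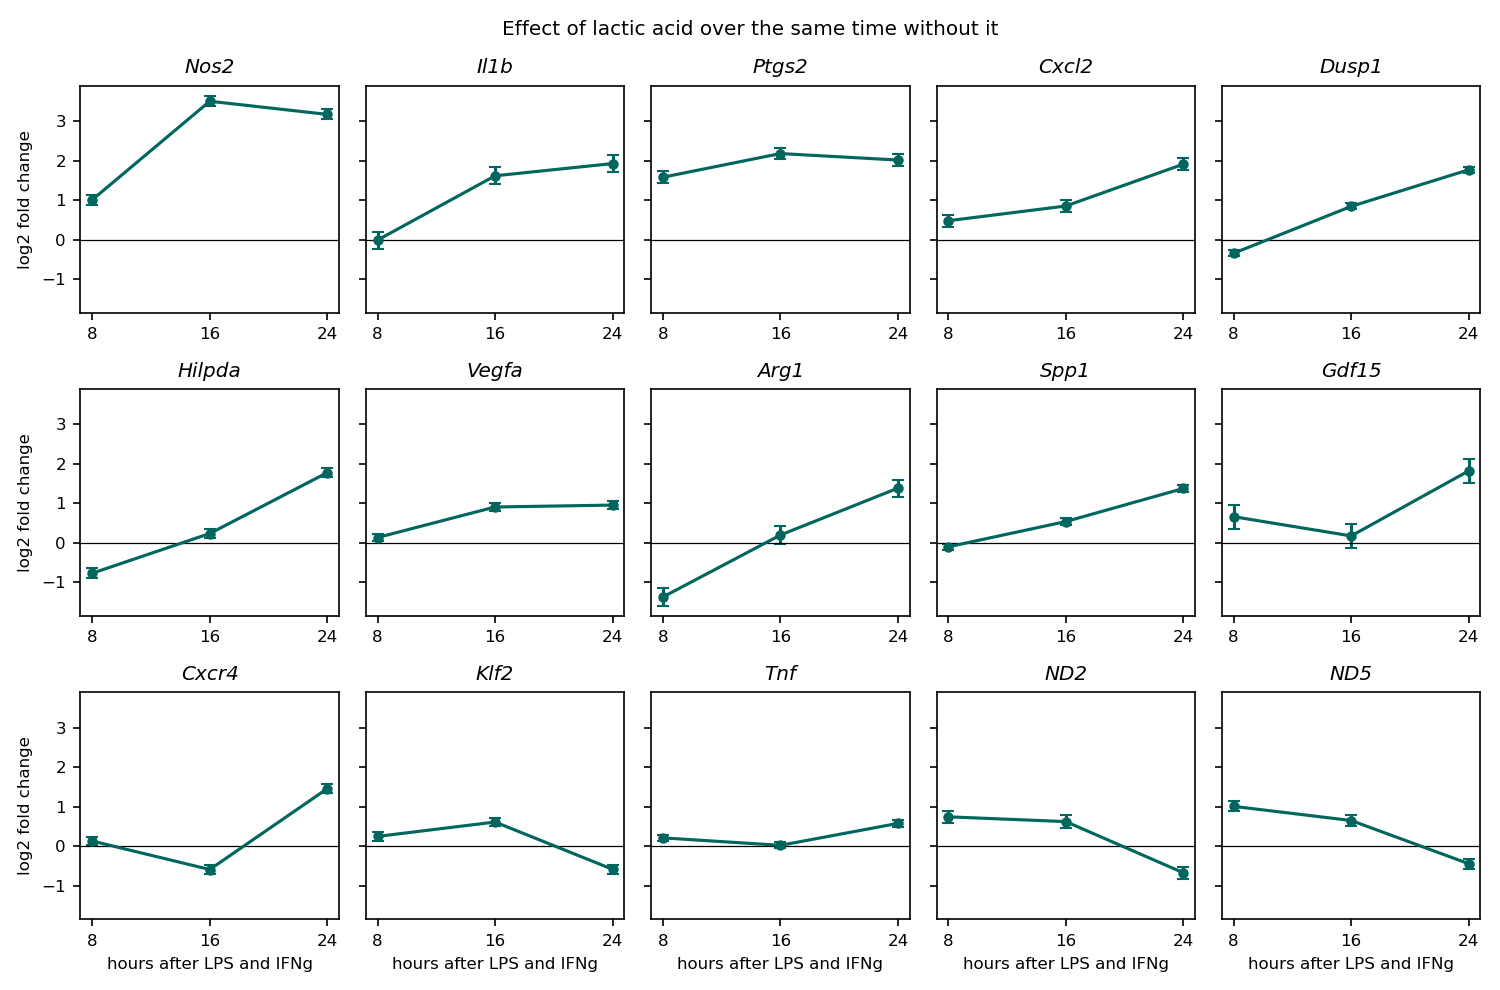
Log2 fold change of lactic acid over the same time without it at 8, 16 and 24 h for 15 genes; points are estimates and bars ± SE of the model over 32 libraries. Nos2 and Ptgs2 are positive at all 3 times, Arg1 and Hilpda turn from negative at 8 h to positive at 24 h, and ND2 and ND5 turn the other way.

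The genes of first interest differed in when the effect began. The effect of lactic acid on Nos2 was 1.01 at 8 h, 3.50 at 16 h and 3.17 at 24 h; the difference between 24 h and 8 h was 2.16 (adjusted p 1.05e-10; 2.22 without the length trend), and that between 24 h and 16 h, -0.33, did not pass the test (adjusted p 0.118; -0.30 without the length trend) but did when scaled to reads in listed genes (-0.59, adjusted p 0.00759). Without lactic acid, Nos2 averaged 435 ± 21.4 RPKM at 4 h, 8.51 ± 1.74 RPKM at 16 h and 20.6 ± 3.68 RPKM at 24 h (SD, n = 4 each). Arg1 was lower with lactic acid at 8 h (-1.37, adjusted p 3.07e-06), was 0.20 at 16 h (adjusted p 0.439) and higher at 24 h. The differences were 2.76 from 8 h (2.38 without the length trend) and 1.19 from 16 h (0.92), with adjusted p of 2.30e-08 and 0.00233. Vegfa had 0.13 at 8 h (adjusted p 0.229), 0.91 at 16 h and 0.96 at 24 h. Its difference from 16 h was 0.05 (adjusted p 0.798, SE 0.14; 0.08 without the length trend). Il1b followed the same order, with -0.01, 1.62 and 1.93. Hilpda was lower at 8 h (-0.77), did not pass the test at 16 h (0.24, adjusted p 0.0888) and was higher at 24 h, with a difference from 8 h of 2.55 (2.06 without the length trend). Cxcr4 was 0.13 at 8 h (adjusted p 0.31), lower at 16 h (-0.59) and higher at 24 h, so that its difference from 16 h was 2.05 (adjusted p 5.47e-10), and 1.84 without the length trend. For Tnf the difference from 8 h was 0.37 (adjusted p 0.00551), and the call was lost both without the length trend (0.04, adjusted p 0.822) and when scaled to reads in listed genes (0.08, adjusted p 0.612). Klf2, ND2, ND5 and ND6 had negative differences from both earlier times, with and without the length trend (-1.11, -1.93, -1.74 and -2.24 from 8 h, and -1.40, -1.66, -1.30 and -1.98 from 16 h without it). For ND6 the effect was 0.69 at 8 h, 0.64 at 16 h and -0.78 at 24 h.

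Lists showed the same variety of timing. HIF targets rose in 18 of 25 at 16 h (median 0.72) and in 6 at 8 h, where 9 fell (median -0.12). The 24 h minus 8 h difference was positive in 20 and negative in 2. That from 16 h was positive in 7, near the share over all genes, and negative in 2. Glycolysis rose in 12 of 21 at 16 h (median 0.25) and had 7 higher and 7 lower at 8 h, near the shares over all genes. Mitochondrially encoded transcripts were reversed in time: 8 of 12 rose and none fell at 8 h (median 0.66) and at 16 h (median 0.62). The 24 h minus 16 h difference was negative in all 12, with and without the length trend. Ribosomal protein genes fell in 27 of 28 at 8 h (median -0.44; 17 fell and 2 rose without the length trend, median -0.21). Sterol and fatty acid synthesis rose in 14 of 31 and fell in 4 at 8 h (median 0.18), and the difference between 24 h and 8 h was negative in 19 and positive in 2. Class II genes fell in 4 of 7 at 8 h and rose in 1 at 16 h, and the difference from 8 h was positive in all 7 (5 without the length trend).

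**Figure D5:**
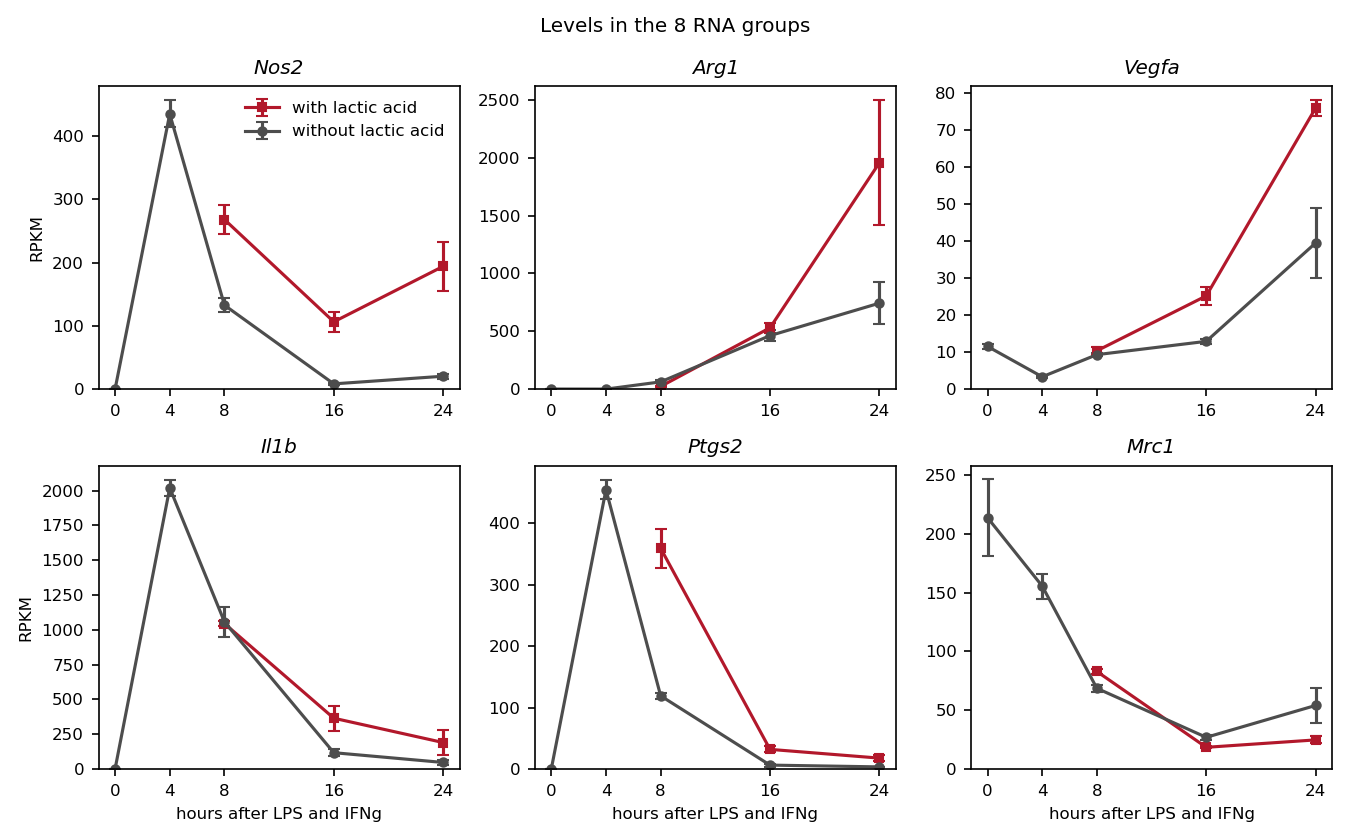
Mean RPKM ± SD (n = 4) of 6 genes against hours after LPS and IFNg, with lactic acid in red (8, 16 and 24 h) and without it in grey (0 to 24 h). Nos2 and Il1b peak at 4 h and are higher with lactic acid than without it at 24 h, while Arg1 and Vegfa climb to their highest levels at 24 h with lactic acid.

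Promoters of the changed genes were described with the marks of stimulated cells that received no lactic acid, so the peaks do not show what lactic acid did to chromatin. The libraries held 21.0 M mouse reads for H3K18la and 32.9 M for H3K18ac, and the authors' lists held 16139 and 42237 peaks. Of 7823 genes tested with a promoter window, 66.0% had an H3K18la peak and 89.4% an H3K18ac peak over a window. Among genes higher with lactic acid these shares were 69.3% and 90.6% (of 1976), and among lower genes 59.3% and 86.4% (of 1679). These sets differed in level as well: the median RPKM at 24 h without lactic acid was 11.4 in the higher genes, 3.89 in the lower and 6.17 in all. Of the 54 genes at least 2-fold higher that have a window, 27 (50%) had an H3K18la peak and 44 (81.5%) an H3K18ac peak. With 1 library per mark there is no test of these shares.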

How the data were processed

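RNA was measured in 32 libraries of 8 groups, 4 replicates each. The authors' deposited table gives RPKM per gene and library, with their log2 fold changes against 0 h and a false discovery rate (a p-value adjusted over genes); these 2 served only as checks. Of the 11184 genes the deposited table lists, 19 have a false discovery rate of 0.05 or more. HISAT2 2.1.0, featureCounts 1.5.0-p1, edgeR, Bowtie2 2.2.6, SAMtools 0.1.19 and MACS2 2.2.1 are named, without roles, in the submitters' processing notes, with the builds mm10 and GRCm38. Deposited ChIP-seq peak lists gave a fold enrichment (ratio) per peak, which is the authors' value, and the deposited read count per ChIP library gave its depth; the peak threshold and control are not given in the sources used here.

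From the RPKM, whole reads were recovered with gene lengths (100% of values within 0.05 of a whole number, 10% by chance). Depth was 60.6 to 104 M reads in listed genes per library. Genes that reached 1 RPKM in 4 or more of the libraries were fitted as log2(RPKM + 1) with limma 3.58.1 (limma-trend, R 4.3.3) over all 32 libraries, with 24 residual degrees of freedom. P-values were adjusted by Benjamini-Hochberg over all genes tested, with a threshold of 0.05. Fold changes on this scale understate the change of low genes. The difference of effects between times was tested as a contrast in the same fit.

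Genes named by rule were 8 fixed ones (Arg1, Vegfa, Nos2, Tnf, Il1b, Il6, Ldha and Actb), up to 3 called genes of each of 34 lists with the largest change, the 12 higher and 12 lower genes with the largest change among those whose mean level was 3 log2 units or more, without overlap of the groups, and the 3 largest differences between times in each direction. Other list members are named after their values were seen, and some genes the rule names are not reported here. The comparison and the lists were chosen with earlier results of these data known. The alternatives covered the pseudocount, the filter, the scaling, gene length, the samples fitted, the replicate block, limma-voom and leaving out libraries.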

Additional observations from a re-analysis of the deposited data

Results flagged for a closer look

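Of 198 groups of 4 libraries of the named genes reported here, 11 held a library whose gap to its nearest neighbour was large for the range of its group, where chance gives about 1 in 20. Library 1 with lactic acid had 11.3 RPKM of Hspd1 (others 14.5 to 14.9), 6.45 of Ctsk (others 5.00 to 5.06) and 54.2 of BC005537 (others 77.5 to 79.5). Library 3 with lactic acid had 8.43 RPKM of Idh3a (others 9.11 to 9.18). Library 4 with lactic acid had 36.1 RPKM of Isg20 (others 42.1 to 43.0) and 16.4 of Herpud1 (others 20.2 to 20.4). Without lactic acid, library 4 had 109 RPKM of Mdh2 (others 85.5 to 88.8), 398 of Ndufa2 (others 207 to 232), 185 of Hsp90b1 (others 155 to 156), 17.9 of Ccnd1 (others 29.8 to 30.3) and 51.0 of Klf2 (others 35.3 to 37.0).

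Effects of lactic acid that differed between times are given for named genes (limma-trend contrasts, adjusted p under 0.05). Hilpda, Cxcr4, Gdf15, Rgs1, Klf2, ND2, ND5 and ND6 were named for having the largest such differences, so their calls are a description, and over all genes tested 62.5% passed from 8 h and 50.1% from 16 h. Values are log2 differences of the effect at 24 h minus that at the earlier time. From 8 h they were 2.76 for Arg1, 0.82 for Vegfa, 2.16 for Nos2, 0.37 for Tnf, 1.94 for Il1b, 1.05 for Ldha, -0.35 for Actb and 2.55 for Hilpda. Also from 8 h they were 1.33 for Cxcr4, 1.16 for Gdf15, 1.35 for Rgs1, -0.83 for Klf2, -1.48 for ND6, -1.45 for ND5 and -1.42 for ND2. From 16 h they were 1.19 for Arg1, 0.56 for Tnf, 0.64 for Ldha, -0.46 for Actb, 1.54 for Hilpda and 2.05 for Cxcr4. The others from 16 h were 1.65 for Gdf15, 1.58 for Rgs1, -1.20 for Klf2, -1.42 for ND6, -1.09 for ND5 and -1.30 for ND2. Gene length moved with these differences, and without each library's length trend the calls of Tnf and Gdf15 from 8 h were lost (0.04 and 0.88). They were lost too when scaled to reads in listed genes (0.08 and 0.86), and that of Gdf15 in the fit of the compared groups only (adjusted p 0.0552). The call of Gdf15 from 8 h was also lost without library 2 or library 3 without lactic acid (0.74 and 0.98).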

How the results depend on the processing

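No named gene changed direction in its effect at 24 h, or in a called difference between times, under any alternative run that tested it. Differences that had not passed the test were not compared in direction unless an alternative passed. Scaled to reads in listed genes, 1035 genes were higher and 4617 lower at 24 h; the difference between effects was positive in 1669 and negative in 4761 genes from 8 h, and in 1147 and 4119 from 16 h. Fitted on the 2 groups alone, 1256 genes were higher and 1001 lower. With at least 5 RPKM, which tests fewer genes, 1242 were lower at 24 h, the differences were negative in 1811 (8 h) and 1479 (16 h), and 2110 were higher at 8 h. Scaling to reads in listed genes turned the medians of arginine metabolism (-0.0146), interferon-stimulated genes (-0.0025), class I (-0.0739), respiratory chain (-0.0633), lysosome (-0.0801), neutrophil (-0.0321) and lymphocyte genes (-0.0547) negative. The median over all genes was -0.148 in this scaling, so these medians still lay above it. The neutrophil median was -0.0881 without the length trend, and the dendritic one -0.0430 with limma-voom on recovered reads. Leaving out 1 library at a time gave 2226 to 2971 higher and 1908 to 2468 lower genes at 24 h, differences of 3012 to 3570 and 2750 to 3217 from 8 h, and of 2285 to 3123 and 1980 to 2643 from 16 h. It gave 3197 to 3366 higher and 3576 to 3790 lower at 8 h, and 3000 to 3204 and 3065 to 3339 at 16 h.

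The call at 24 h was lost for 15 of 103 named genes in the fit of the 2 groups alone and for 11 when scaled to reads in listed genes. With the replicate number as a block (replicate block) 2520 genes were higher and 2142 lower; the differences were 3245 and 2953 from 8 h and 2635 and 2319 from 16 h, and the counts 3206 and 3581 at 8 h and 2990 and 3071 at 16 h. Same-numbered libraries correlated at -0.43, 0.13, 0.00 and -0.64 in their deviations, so the numbers were not taken as pairs. The edgeR and DESeq2 fits on recovered reads were not run; limma-voom, chosen after seeing the data, gave 2519 higher and 2130 lower genes. Leaving out library 1 with and library 4 without lactic acid was also chosen after seeing the data. The depth of the RNA libraries limits genes near 1 RPKM most, and 1 ChIP library per mark gives no replicate error.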
